A study of Mus musculus with 6 samples.

Results

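The genes described here are 34 enzymes of nucleotide and one-carbon metabolism, chosen by symbol from the 24421 gene entries of a count table of mouse monocyte RNA. They comprise the enzymes that build purines and pyrimidines, the kinases that charge or salvage nucleosides, the enzymes that make deoxynucleotides and the folate enzymes that supply one-carbon units. All 34 symbols were found and all 34 passed the filter on low counts. Monocytes, phagocytes made in the bone marrow, were sorted from the marrow of B6 mice. In 3 libraries the cells had been exposed for 3 h to GM-CSF, a growth factor of granulocytes and macrophages, at 5 ng with no volume stated, and 3 libraries were controls. One label calls the controls freshly isolated and another speaks of 3 h in medium with or without GM-CSF, so if the controls were not cultured, time in culture and GM-CSF cannot be told apart. All cells were of the B6 strain, and no separate mice or cultures are named, so p-values measure the spread between these libraries, which may be technical.

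Cells make purine rings on a ribose phosphate carrier, PRPP, by a chain of reactions that ends in IMP, from which AMP and GMP are drawn. Pyrimidines are made as UMP, which is charged to UTP and converted to CTP. Both routes take one-carbon units or ring atoms from amino acids: serine is split by serine hydroxymethyltransferase, and the folate enzymes carry its carbon to the purine ring and to thymidylate. RNA synthesis uses ribonucleotides, whereas DNA synthesis needs deoxynucleotides from ribonucleotide reductase, thymidylate synthase and the deoxynucleoside kinases. Monocytes can also recycle nucleosides through salvage kinases. The transcription factors MYC and ATF4 are known to activate many of these genes.

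Reads in genes numbered 16643228 to 21468929 in the 3 GM-CSF libraries, against 20782467 to 25232956 in the 3 controls. Levels are given as CPM, the reads of a gene scaled to a common library total. For a gene without reads, counting error alone sets an upper 95% limit of about 3 reads. That limit corresponds to 0.140 to 0.180 CPM in GM-CSF and 0.119 to 0.144 CPM in control libraries. Correlations of log2 CPM across genes were 0.980 to 0.991 among GM-CSF libraries, with replicate 3 the lowest, and 0.992 among controls. Each of 9 monocyte markers was detected, and their summed level was 27360 to 29460 CPM in GM-CSF and 60520 to 69680 CPM in control libraries, most of it Lyz2. At an edgeR adjusted p under 0.05, 7 of the 9 (77.8%, against 31.2% of all genes tested) were lower with GM-CSF, Lyz2 among them (log2 fold change -1.38). The number higher was 0, against 32.8% of all genes tested. Of the markers of other cells, 10 neutrophil and precursor genes summed to 10850 to 13680 CPM in GM-CSF and 16060 to 21190 CPM in control libraries, with the granule peroxidase gene Mpo the most abundant over all 6 libraries. Mpo itself did not pass, at 4676 ± 660.2 CPM in GM-CSF and 4164 ± 740.5 CPM in control libraries (log2 fold change 0.18), whereas the granule gene Ngp, the most abundant of the list in control libraries, fell to 2203 ± 272.3 CPM in GM-CSF libraries, against 5282 ± 952.0 CPM in control libraries (-1.25). The 4 globin genes had 0 reads in every library. The other lists, whose most abundant genes over all 6 libraries were Nkg7 (T and NK cells), Cd79b (B cells), Kit (stem and progenitor cells), Prss34 (basophils and mast cells), Siglech (dendritic cells) and Klf1 (erythroid cells), each summed to at most 194 CPM in GM-CSF and 233 CPM in control libraries. Nkg7 alone averaged 181 of the 183 CPM of the T and NK list in GM-CSF libraries and 194 of the 195 CPM in control libraries. That sum therefore says little of T or NK cells. In such bulk samples, fewer cells of a type and less RNA per cell cannot be told apart.

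Among these genes, the ones for which a stretch before the start site could be read clear of any annotated exon include the CTP synthase gene Ctps, which rose, the mitochondrial thymidine kinase gene Tk2, which fell, and the PRPP synthetase pair Prps1 and Prps2, which moved in opposite directions. For each gene the 250 bases before a RefSeq start on GRCm38.p6 are shown, 5′ to 3′ on the gene's strand. They set a pair of isozyme genes beside the strongest rise and fall that could be read this way. RefSeq gave Ctps another start, also clear of exons. Its 250 bases, at chr4:120569460-120569709, held none of the motifs searched and are not shown. Capitals mark matches to GGGCGG on either strand, to CCAAT and, in Prps1 alone of the 4, TGATGTAA, a form of the TGATGNAA element that ATF4 complexes bind. Ctps at chr4:120570277-120570526 (minus strand), Tk2 at chr8:104248559-104248808 (minus), Prps1 at chrX:140456353-140456602 (plus) and Prps2 at chrX:167382750-167382999 (minus) read as follows.
Ctps: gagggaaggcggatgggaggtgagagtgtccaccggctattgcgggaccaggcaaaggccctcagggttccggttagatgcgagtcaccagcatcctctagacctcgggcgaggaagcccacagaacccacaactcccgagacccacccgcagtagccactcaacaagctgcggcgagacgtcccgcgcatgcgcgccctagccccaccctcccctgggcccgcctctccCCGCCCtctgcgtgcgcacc
Tk2: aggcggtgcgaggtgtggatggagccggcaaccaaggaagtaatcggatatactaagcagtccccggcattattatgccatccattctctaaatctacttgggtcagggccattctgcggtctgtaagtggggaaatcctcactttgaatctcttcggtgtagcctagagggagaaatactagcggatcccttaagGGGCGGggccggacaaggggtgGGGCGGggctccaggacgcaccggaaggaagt
Prps1: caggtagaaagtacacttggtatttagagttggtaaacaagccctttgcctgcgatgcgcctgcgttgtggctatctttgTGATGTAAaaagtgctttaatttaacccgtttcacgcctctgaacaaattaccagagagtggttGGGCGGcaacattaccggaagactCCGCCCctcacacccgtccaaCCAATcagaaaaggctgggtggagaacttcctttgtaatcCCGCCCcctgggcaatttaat
Prps2: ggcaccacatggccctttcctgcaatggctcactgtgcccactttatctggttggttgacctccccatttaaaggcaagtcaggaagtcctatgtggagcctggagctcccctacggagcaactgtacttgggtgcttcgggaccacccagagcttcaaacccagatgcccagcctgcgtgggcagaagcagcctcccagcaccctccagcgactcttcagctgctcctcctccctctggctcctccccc

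The motifs below were searched on both strands in windows of 300 bases, from 250 before to 50 after each start, which RefSeq gave for 31 of the 34 genes. The E-box CACGTG, a binding sequence of MYC and its partners, was present in 5 of 31 members (16.1%) and in 8.09% of 27025 genes of all kinds with such a window. Its 5 carriers were Atic, Impdh2, Nme1, Paics and Tyms, and Nme1 has it before each of the 2 starts that RefSeq gave. CACGCG was in 2 of 31 members, Shmt1 and Shmt2, against 10.5% of genes, TGATGNAA in Prps1 alone against 4.51%, and TTTCGCGC and TTTGGCGC, sequences of the E2F type counted together, were in no member and in 0.929% of genes. CCAAT was in 12 members (38.7%, against 41.1% of genes) and GGGCGG in 24 (77.4%, against 38.2%). The windows of members had a median GC content of 60.7%, against 52.8% over all genes. No test was made of these shares. Each E-box is shown with 10 bases on either side, in capitals, since they are all the canonical E-boxes found in the members' windows.
Atic (chr1:71557139-71557164, plus strand): acctcggggtCACGTGgggtcgacac
Impdh2 (chr9:108560316-108560341, plus): gctcgataagCACGTGgttacccagc
Nme1 (chr11:93968275-93968300, minus): tgcggggaacCACGTGaggccgggga
Nme1 (chr11:93968039-93968064, minus): cttgatacgcCACGTGggctcgcctt
Paics (chr5:76951089-76951114, plus): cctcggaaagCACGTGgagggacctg
Tyms (chr5:30073671-30073696, minus): ccacttctgtCACGTGggggcggggt

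Most of the 34 genes rose with GM-CSF, by modest amounts. At an adjusted p under 0.05 (edgeR quasi-likelihood test, adjusted over all 11731 genes tested), 21 members (61.8%) were higher and 6 (17.6%) lower, against a background of 32.8% higher and 31.2% lower among all genes tested. In all, 27 of 34 (79.4%) changed, against 64.0% of genes. The median log2 fold change was 0.32 in the members and 0.01 over all genes. At least 2-fold higher were 4 of 34 members (Uck2, Ctps, Shmt1 and Ppat), a share close to the 11.9% of all genes. At least 2-fold lower was 1 of 34 (Tk2), where 12.6% of genes were. The groups did not overlap in CPM for 28 members, 22 of them higher and 6 lower, against 69.5% of genes, 34.9% higher and 34.7% lower. The summed level of the 34 genes was 3396, 3399 and 3354 CPM in GM-CSF libraries, against 2655, 2657 and 2821 CPM in control libraries. With upper quartile scaling, which moved the median of all genes by -0.117, 15 members were higher and 6 lower. The share of members called in either direction was then 61.8%, against 64.6% of all genes, so the excess of called genes was not kept. Of the called members 71.4% were higher, against 43% of all called genes. The median was 0.21 in the members and -0.11 over all genes, so the members still leaned upward. Gart, Impdh2, Mthfd1l, Paics, Rrm1 and Tyms no longer passed.

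**Figure D1:**
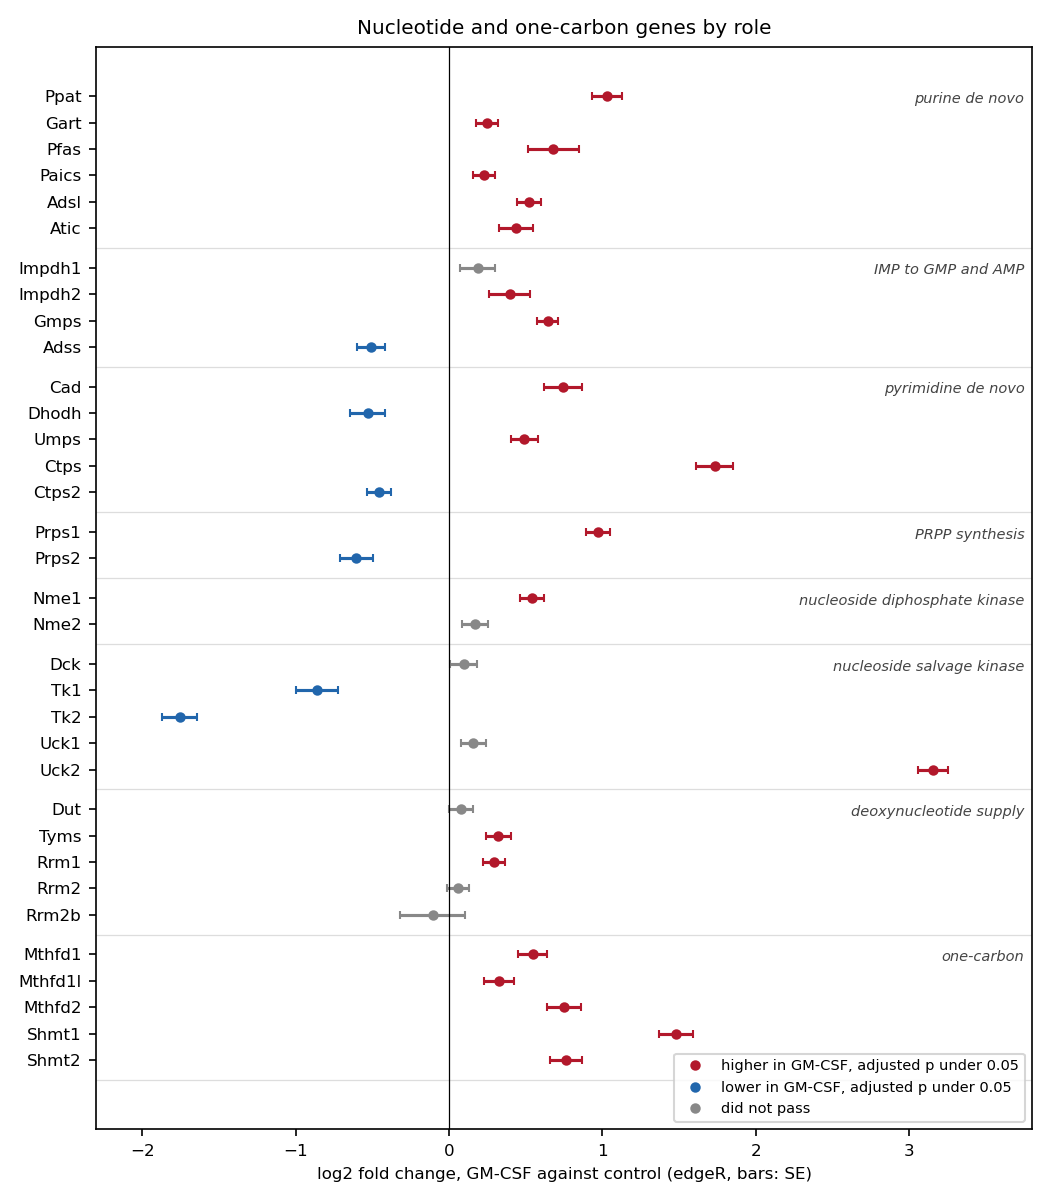
Log2 fold changes of the 34 genes (x axis, GM-CSF against control; bars, SE), grouped by role down the page. The 21 genes in red rose and the 6 in blue fell at an adjusted p under 0.05; the purine de novo and one-carbon genes lie to the right of 0 throughout, while the nucleoside salvage kinases span the range, Tk2 at -1.76 to Uck2 at 3.15.

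All 6 genes of the purine chain rose (100%, against 32.8% of all genes). With upper quartile scaling Gart (0.13) and Paics (0.11) did not pass. Ppat, the amidotransferase that makes the committed step from PRPP, rose most. Its level was 43.7, 47.5 and 42.7 CPM in GM-CSF replicates 1 to 3, against 22.01, 20.2 and 23.7 CPM in control replicates 1 to 3 (log2 fold change 1.03 ± 0.10, SE; edgeR adjusted p = 5.33e-06). The lowest GM-CSF library stood well above the highest control. Pfas, the next amidotransferase of the chain, averaged 19.0 ± 4.33 CPM in GM-CSF and 11.9 ± 0.198 CPM in control libraries (SD, n = 3 each; log2 fold change 0.68), with GM-CSF replicate 3 at 14.1 CPM closest to the controls. Adsl, a lyase that acts in the chain and again on the way to AMP, averaged 104 ± 5.44 CPM in GM-CSF and 72.5 ± 2.81 CPM in control libraries (0.52). Atic, which closes the ring to IMP, averaged 55.6 ± 7.27 CPM in GM-CSF and 41.2 ± 2.54 CPM in control libraries (0.44). Gart and Paics, each with several activities of the chain, had the smallest changes of the 6. Gart averaged 109 ± 5.22 CPM in GM-CSF and 92.2 ± 1.11 CPM in control libraries (log2 fold change 0.25; edgeR adjusted p = 0.0103), and Paics 165 ± 8.01 CPM in GM-CSF and 142 ± 8.96 CPM in control libraries (0.23; adjusted p = 0.0170).

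Ppat and Paics are neighbours on mouse chromosome 5 that are transcribed away from a shared start region. GENCODE M21 places Ppat at 76913249 to 76951578 on the minus strand and Paics at 76951307 to 76967509 on the plus strand, an overlap of 272 bases on GRCm38. Whether strand was used in counting is not given in the sources used here, so reads in that overlap cannot be assigned. Relative to length, Paics was the more abundant of the pair, at 52.6 ± 2.55 CPM per kilobase of exon in GM-CSF and 45.2 ± 2.85 in control libraries, whereas Ppat stood at 10.1 ± 0.572 in GM-CSF and 4.97 ± 0.396 in control libraries. The Paics call was lost without GM-CSF replicate 2 (log2 fold change 0.20) and without control replicate 1 (0.20) or control replicate 2 (0.21).

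At the branch from IMP, the genes toward GMP and AMP moved in different directions. Gmps, the GMP synthetase gene, rose, at 142 ± 4.90 CPM in GM-CSF and 91.1 ± 3.41 CPM in control libraries (log2 fold change 0.64 ± 0.07; edgeR adjusted p = 1.09e-05). Adss, a gene of the adenylosuccinate synthetase that starts the AMP branch, fell. Adss was at 116, 111 and 97.0 CPM in GM-CSF libraries, against 148, 170 and 146 CPM in control libraries (-0.51 ± 0.09, edgeR adjusted p = 6.08e-04). The entry Adssl1, named as an Adss-like gene, was more abundant and also fell. It was at 242 ± 10.1 CPM in GM-CSF and 356 ± 20.2 CPM in control libraries (-0.55). IMP dehydrogenase, which commits IMP to GMP, has 2 genes. Impdh2 was at 21.5, 20.5 and 16.9 CPM in GM-CSF libraries, against 13.3, 15.5 and 16.2 CPM in control libraries (0.40; edgeR adjusted p = 0.0241). The groups were separated by less than 1 CPM, and the call was lost without any single one of GM-CSF replicates 1 and 2 or control replicates 1 and 2. Impdh1 was at 62.8, 55.0 and 68.0 CPM in GM-CSF libraries, against 47.3, 54.6 and 62.6 CPM in control libraries, groups that overlapped, and did not pass (0.19; edgeR adjusted p = 0.174). Per kilobase Impdh1 was the higher of the pair in either group, at 18.8 ± 1.98 CPM per kilobase in GM-CSF and 16.6 ± 2.31 in control libraries, beside 6.39 ± 0.777 in GM-CSF and 4.88 ± 0.485 in control libraries for Impdh2.

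Of the 5 pyrimidine genes, 3 (60%, against 32.8% of all genes) rose and 2 (40%, against 31.2%) fell. Cad, whose product carries the first 3 activities of the route, was at 41.7 ± 2.81 CPM in GM-CSF and 25.1 ± 4.01 CPM in control libraries (log2 fold change 0.74). Dhodh, the mitochondrial dehydrogenase in the middle of the route, fell, with 16.5, 16.6 and 17.3 CPM in GM-CSF libraries, against 21.9, 26.0 and 25.2 CPM in control libraries (-0.53 ± 0.11; edgeR adjusted p = 0.00178). Umps, which makes UMP, rose, at 117 ± 10.3 CPM in GM-CSF and 83.5 ± 6.70 CPM in control libraries (0.49). The largest change among these 5 was in Ctps, which encodes a CTP synthase. It was at 67.8, 64.2 and 53.9 CPM in GM-CSF libraries, against 19.9, 16.5 and 19.8 CPM in control libraries, a 3.32-fold difference (log2 fold change 1.73 ± 0.12; edgeR adjusted p = 3.92e-07). Its isozyme gene Ctps2 fell, at 106, 117 and 102 CPM in GM-CSF libraries, against 155, 151 and 142 CPM in control libraries (-0.46 ± 0.08; edgeR adjusted p = 4.12e-04). Neither gene overlapped between groups. Per kilobase, Ctps2 was at 31.6 ± 1.47 CPM and Ctps at 5.65 ± 0.590 in control libraries, while in GM-CSF libraries they stood nearer, Ctps2 at 22.9 ± 1.64 and Ctps at 18.7 ± 2.17.

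**Figure D2:**
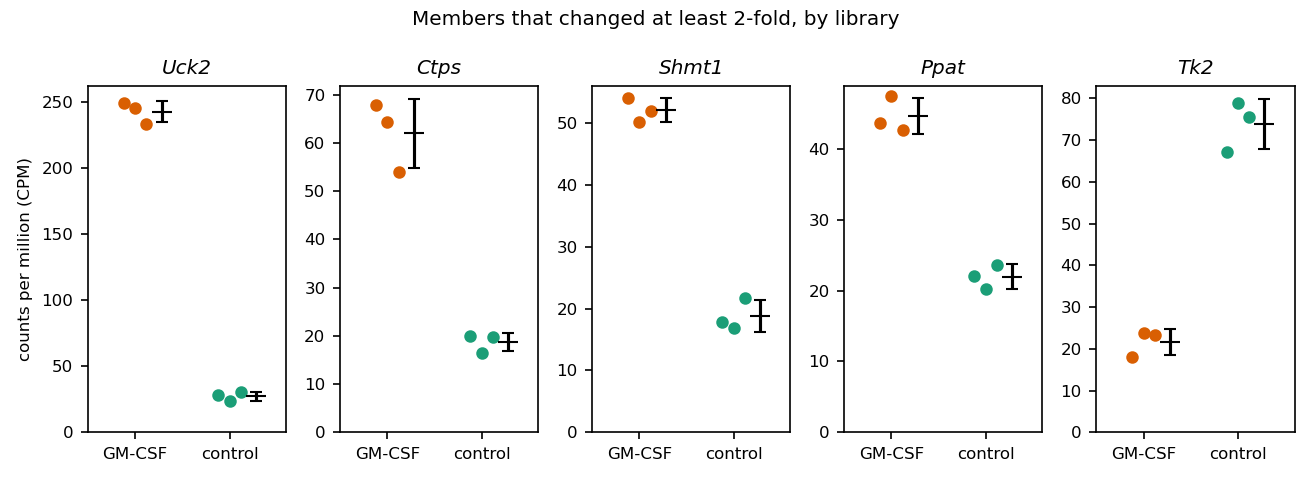
CPM (y axis, from 0) in each library for the 5 genes that changed at least 2-fold, GM-CSF left and control right; points are libraries and bars the mean ± SD of 3. Uck2, Ctps, Shmt1 and Ppat are higher in all 3 GM-CSF libraries than in any control, and Tk2 is lower, with no overlap between groups.

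PRPP synthetase, which makes the ribose phosphate carrier for both routes and for base salvage, showed opposite changes in its 2 genes, both on chromosome X. Prps1 rose to 80.4, 82.7 and 76.7 CPM in GM-CSF libraries, against 40.9, 40.3 and 41.9 CPM in control libraries (log2 fold change 0.97 ± 0.08; edgeR adjusted p = 1.19e-06). Prps2 fell to 17.2, 18.1 and 19.7 CPM in GM-CSF libraries, against 27.8, 29.4 and 26.9 CPM in control libraries (-0.60 ± 0.11; edgeR adjusted p = 5.67e-04). Ranges within each group were narrow beside the distance between groups. The entry Prps1l3, named as a Prps1-like gene, was at 60.0 ± 5.08 CPM in GM-CSF and 35.5 ± 4.06 CPM in control libraries (0.76), so reads may be shared between it and Prps1, whose level is uncertain to that extent.

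Nucleoside diphosphate kinases pass phosphate between nucleoside triphosphates, and the genes of the main cytosolic forms, Nme1 and Nme2, lie in tandem on chromosome 11. Nme1 was at 208, 206 and 209 CPM in GM-CSF libraries, against 148, 129 and 154 CPM in control libraries (log2 fold change 0.54 ± 0.08; edgeR adjusted p = 1.18e-04). Nme2 was at 151, 128 and 143 CPM in GM-CSF libraries, against 131, 120 and 127 CPM in control libraries (0.17; edgeR adjusted p = 0.103), and the groups overlapped. Without GM-CSF replicate 2, the lowest of its group, Nme2 passed (0.24). GENCODE M21 also lists a gene, Gm20390, that overlaps both, but the count table has no entry of that name. The products of Nme1 and Nme2 are close relatives, so reads of sequence that these 2 genes share may be split or left out. Nme2 was nevertheless the most abundant member per kilobase in GM-CSF libraries, at 120 ± 9.74 CPM per kilobase, and second to Rrm2 in control libraries, at 107 ± 4.86.

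The kinases that recycle nucleosides held both the largest rise and the largest fall of the 34 genes. Uck2, a uridine-cytidine kinase that returns uridine and cytidine to the nucleotide pool, was at 249, 246 and 234 CPM in GM-CSF libraries, against 28.3, 23.7 and 30.3 CPM in control libraries. The fold was 8.90 (log2 fold change 3.15 ± 0.10; edgeR adjusted p = 1.05e-09), and the value was 3.04 to 3.22 over the 14 alternative fits. Its isozyme gene Uck1 was at 59.4, 56.5 and 53.2 CPM in GM-CSF libraries, against 51.3, 49.4 and 51.4 CPM in control libraries, and did not pass (0.16; edgeR adjusted p = 0.118), though without GM-CSF replicate 3 it did (0.21). Per kilobase, Uck2 moved to 44.4 ± 1.47 CPM in GM-CSF libraries, against 5.02 ± 0.613 in control libraries, where Uck1 was the higher gene at 18.4 ± 0.410. Among the 34 genes ordered by level per kilobase, Uck2 was sixth in GM-CSF libraries and 27th in control libraries.

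Tk2, the mitochondrial thymidine kinase, was at 18.2, 23.8 and 23.3 CPM in GM-CSF libraries, against 67.3, 79.0 and 75.5 CPM in control libraries, 3.38-fold lower with GM-CSF (log2 fold change -1.76 ± 0.11; edgeR adjusted p = 2.34e-07). Tk1, the cytosolic thymidine kinase of dividing cells, was at 34.4, 38.3 and 49.0 CPM in GM-CSF libraries, against 66.3, 70.3 and 86.3 CPM in control libraries (-0.86 ± 0.14; edgeR adjusted p = 2.19e-04). Both were lower in every GM-CSF library than in any control. Dck, the deoxycytidine kinase, overlapped between groups at 174 ± 12.5 CPM in GM-CSF and 164 ± 14.8 CPM in control libraries (0.09; edgeR adjusted p = 0.366). Tk1 overlaps the gene Afmid by 169 bases.

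The genes of deoxynucleotide supply changed little. Rrm1, the large subunit of ribonucleotide reductase, was at 380 ± 16.7 CPM in GM-CSF and 312 ± 24.5 CPM in control libraries (log2 fold change 0.29; edgeR adjusted p = 0.00461). Tyms, the thymidylate synthase, was at 108 ± 7.50 CPM in GM-CSF and 87.1 ± 6.38 CPM in control libraries (0.32; edgeR adjusted p = 0.00578). Rrm2, the small subunit that is made in S phase, was at 301, 320 and 323 CPM in GM-CSF libraries, against 286, 297 and 329 CPM in control libraries, and the groups overlapped (0.06; edgeR adjusted p = 0.482). Rrm2b, the p53-induced small subunit, was the lowest of all 34 genes per kilobase and stood at 9.65, 7.69 and 6.29 CPM in GM-CSF libraries, against 9.04, 9.79 and 6.54 CPM in control libraries (-0.10; edgeR adjusted p = 0.679). Dut, which removes dUTP, was at 67.7 ± 2.52 CPM in GM-CSF and 64.5 ± 3.28 CPM in control libraries (0.08; edgeR adjusted p = 0.404). The signs of Rrm2 (-0.06), Dut (-0.04) and Dck (-0.02) turned with upper quartile scaling.

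For these genes the state of the cell cycle is relevant background, and 20 S phase and mitosis genes were read in the same fit. They summed to 3229 to 3447 CPM in GM-CSF and 3169 to 3568 CPM in control libraries, ranges that overlapped. In this list 7 genes (35%, against 32.8% of all genes) rose and 5 (25%, against 31.2%) fell. The 60% called stood near the 64.0% of all genes. With upper quartile scaling 6 rose and 8 fell. The median was 0.05 (-0.07 with upper quartile scaling), and 3 fell without GM-CSF replicate 1 or without control replicate 3. Mcm4, a subunit of the replicative helicase, rose to 255 ± 10.2 CPM in GM-CSF libraries, against 127 ± 6.67 CPM in control libraries (1.01), and Cdc6, which loads that helicase, was at 49.3 ± 2.10 CPM in GM-CSF and 34.7 ± 1.26 CPM in control libraries (0.51). Cdt1, the other loading factor, fell (-0.53), as did the proliferation marker Mki67, at 138 ± 5.75 CPM in GM-CSF and 198 ± 13.7 CPM in control libraries (-0.51). Beside the fall of Tk1, 5 of 10 neutrophil and precursor markers (50%, against 31.2% of all genes) fell and 1 (10%, against 32.8%) rose, with none at 0. The share called, 60%, was near the 64.0% of all genes. The markers that fell were Ltf (-0.90), Camp (-1.43), Ngp (-1.25), Mmp8 (-1.61) and Cebpe (-0.96), and Ctsg rose (0.31). Mpo (0.18), Elane (0.10), Prtn3 (-0.001) and Retnlg (-0.12) did not pass, so the list did not move as a whole. Whether neutrophils or their precursors had a part in the fall of Tk1 was not tested.

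All 5 one-carbon genes rose (100%, against 32.8% of all genes). With upper quartile scaling Mthfd1l (0.21) did not pass. Shmt1, the cytosolic serine hydroxymethyltransferase, was at 54.0, 50.1 and 51.9 CPM in GM-CSF libraries, against 17.8, 16.8 and 21.7 CPM in control libraries (log2 fold change 1.48 ± 0.11; edgeR adjusted p = 7.38e-07). Shmt2, its mitochondrial counterpart, was at 103, 93.4 and 98.1 CPM in GM-CSF libraries, against 48.5, 62.9 and 63.6 CPM in control libraries (0.76 ± 0.10; edgeR adjusted p = 7.79e-05). No control library of either gene reached a GM-CSF library. Mthfd2, a mitochondrial folate dehydrogenase, was at 110, 86.8 and 101 CPM in GM-CSF libraries, against 64.9, 57.3 and 55.4 CPM in control libraries (0.75). Mthfd1, the cytosolic enzyme with 3 activities, was at 55.4, 56.4 and 65.1 CPM in GM-CSF libraries, against 39.0, 40.0 and 43.1 CPM in control libraries (0.54). Mthfd1l, which releases formate from mitochondria, changed least of the 5, at 42.7, 39.4 and 38.6 CPM in GM-CSF libraries, against 30.1, 32.0 and 34.7 CPM in control libraries (0.33; edgeR adjusted p = 0.0117). The Mthfd1l call was lost without GM-CSF replicate 1 (0.27). Per kilobase the mitochondrial gene Shmt2 stood above Shmt1 in either group, with Shmt2 at 31.6 ± 1.56 CPM per kilobase in GM-CSF and 18.8 ± 2.74 in control libraries, and Shmt1 at 13.4 ± 0.508 in GM-CSF and 4.83 ± 0.667 in control libraries. Shmt1 overlaps Smcr8 by 184 bases and Shmt2 overlaps Ndufa4l2 by 32 bases.

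Isozymes were compared within each library, as the log2 ratio of their reads, which does not depend on scaling. For the 10 pairs, differences between groups were tested by permuting libraries exhaustively (exact, two-sided). With 3 libraries a group this cannot give a p below 0.1, so no pair could pass 0.05. The 7 pairs without overlap between groups reached that smallest p of 0.1 (0.143 adjusted over the 10 pairs). Of all genes tested, 69.5% did not overlap in CPM, and no share was taken for other gene pairs, so this count is not particular to isozymes. The Uck2 to Uck1 ratio averaged 2.11 ± 0.03 in GM-CSF and -0.89 ± 0.15 in control libraries (SD, n = 3 each), a difference of 3.00. The Ctps to Ctps2 ratio averaged -0.81 ± 0.14 in GM-CSF and -2.99 ± 0.18 in control libraries, a difference of 2.19. The Prps1 to Prps2 ratio averaged 2.12 ± 0.14 in GM-CSF and 0.55 ± 0.09 in control libraries, a difference of 1.57. In these 3 pairs the difference was several times the spread within a group.

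The other pairs shifted less. Tk1 over Tk2 averaged 0.89 ± 0.19 in GM-CSF and 0.00 ± 0.18 in control libraries, since Tk2 fell further than Tk1. Shmt2 over Shmt1 averaged 0.92 ± 0.02 in GM-CSF and 1.63 ± 0.24 in control libraries, a difference of -0.72 toward the cytosolic gene. Nme1 over Nme2 averaged 0.57 ± 0.11 in GM-CSF and 0.19 ± 0.08 in control libraries. Mthfd1l over Mthfd1 averaged -0.55 ± 0.19 in GM-CSF and -0.33 ± 0.03 in control libraries, with GM-CSF replicate 1 at -0.38 and control replicate 1 at -0.37, so that the groups barely parted. The remaining 3 pairs overlapped between groups: Impdh1 over Impdh2 (difference -0.21, exact permutation p = 0.4), Mthfd2 over Mthfd1 (0.21, p = 0.4) and Rrm2 over Rrm2b (0.16, p = 0.6).

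**Figure D3:**
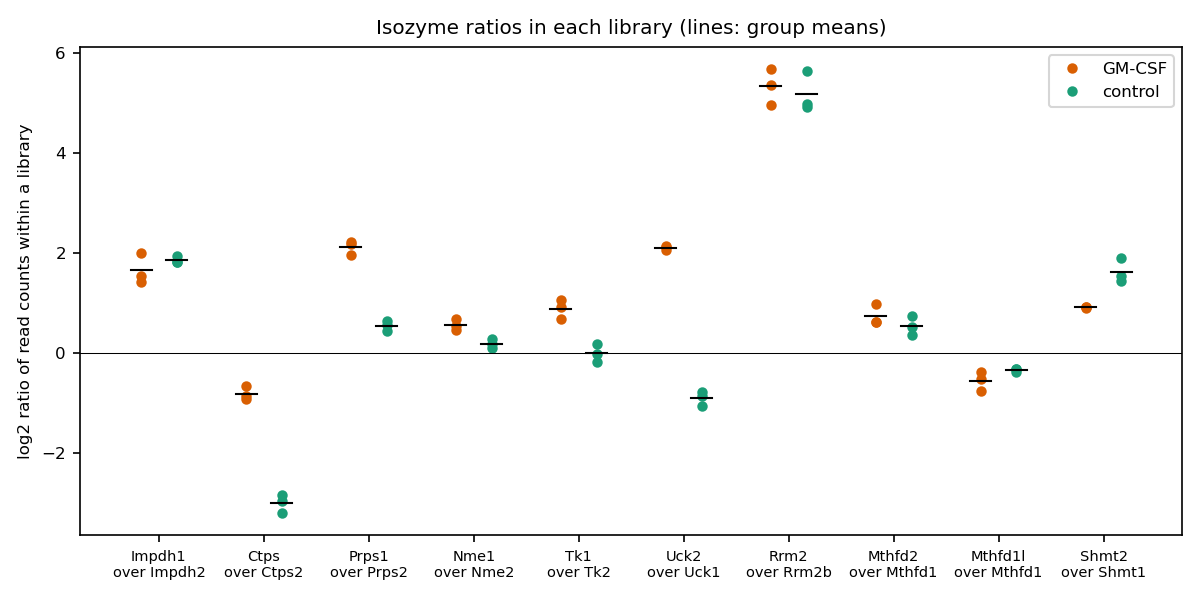
Log2 ratio of read counts of the named pairs within each library (y axis), GM-CSF left and control right in each pair; lines are group means of 3 libraries. The Uck2 to Uck1, Ctps to Ctps2 and Prps1 to Prps2 ratios differ between groups by 3.00, 2.19 and 1.57, while Rrm2 to Rrm2b, Impdh1 to Impdh2 and Mthfd2 to Mthfd1 overlap.

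Genes of the wider folate, serine and methyl cycle were read from the same fit. Of 24 listed genes 20 were tested, of which 12 (60%, against 32.8% of all genes) rose and 5 (25%, against 31.2%) fell, and the median log2 fold change was 0.83. Mat2a, which makes the methyl donor S-adenosylmethionine, rose to 825 ± 72.1 CPM in GM-CSF libraries, against 210.0 ± 3.49 CPM in control libraries (1.98 ± 0.08; edgeR adjusted p = 8.83e-09). Slc19a1, the reduced folate carrier, was at 40.5 ± 4.97 CPM in GM-CSF and 10.9 ± 2.75 CPM in control libraries (1.90). Slc46a1, the proton-coupled folate transporter, fell, at 0.802 ± 0.147 CPM in GM-CSF and 3.72 ± 0.794 CPM in control libraries (-2.20).

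Enzymes of nucleotide breakdown and base salvage changed in either direction. Of 34 listed genes 29 were tested, 7 (24.1%, against 32.8% of all genes) rose and 13 (44.8%, against 31.2%) fell. The 69.0% called stood near the 64.0% of all genes, and the median was 0.03 (-0.09 with upper quartile scaling). Upp1, the uridine phosphorylase, was at 15.8, 11.9 and 10.6 CPM in GM-CSF libraries, against 0.417, 0.159 and 0.577 CPM in control libraries (log2 fold change 5.08 ± 0.33; edgeR adjusted p = 2.64e-07), and rested on 10, 4 and 12 control reads. Nt5e, the surface ectonucleotidase CD73, was at 10.9, 5.59 and 4.38 CPM in GM-CSF libraries, against 0.208, 0.0396 and 0.481 CPM in control libraries (4.88 ± 0.56), on 5, 1 and 10 control reads. Ampd3, an AMP deaminase, fell to 17.6 ± 6.38 CPM in GM-CSF libraries, against 121 ± 10.2 CPM in control libraries (-2.77 ± 0.21), and Pnp2, a purine nucleoside phosphorylase, to 2.89 ± 0.735 CPM in GM-CSF libraries, against 9.54 ± 1.87 CPM in control libraries (-1.71).

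Among 15 tested kinases and partner proteins, 5 (33.3%) rose and 5 (33.3%) fell, shares close to the 32.8% and 31.2% of all genes. With upper quartile scaling 4 rose and 7 fell, and the median was -0.20, against -0.08 in the main scaling. Ak4, a mitochondrial adenylate kinase, was at 5.91 ± 1.56 CPM in GM-CSF and 0.508 ± 0.355 CPM in control libraries (log2 fold change 3.51), and Ak6 at 50.6 ± 4.24 CPM in GM-CSF and 23.2 ± 2.19 CPM in control libraries (1.13). Cmpk2, a mitochondrial kinase that interferons induce, fell to 17.3 ± 3.16 CPM in GM-CSF libraries, against 135 ± 6.75 CPM in control libraries (-2.96 ± 0.12; edgeR adjusted p = 8.46e-09), and Nme3 to 10.03 ± 0.754 CPM in GM-CSF libraries, against 25.6 ± 2.45 CPM in control libraries (-1.34). Of 8 listed nucleoside transporters only 5 were tested. Of these 2 (40%, against 32.8% of all genes) rose and 3 (60%, against 31.2%) fell. Their median was -0.33 (-0.44 with upper quartile scaling). The equilibrative carriers Slc29a2 (1.61) and Slc29a1 (0.60) rose. Slc28a2, a sodium-coupled purine nucleoside carrier, fell to 32.5 ± 7.24 CPM in GM-CSF libraries, against 73.7 ± 8.54 CPM in control libraries (-1.18), and the lysosomal carrier Slc29a3 fell as well (-0.60).

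**Figure D4:**
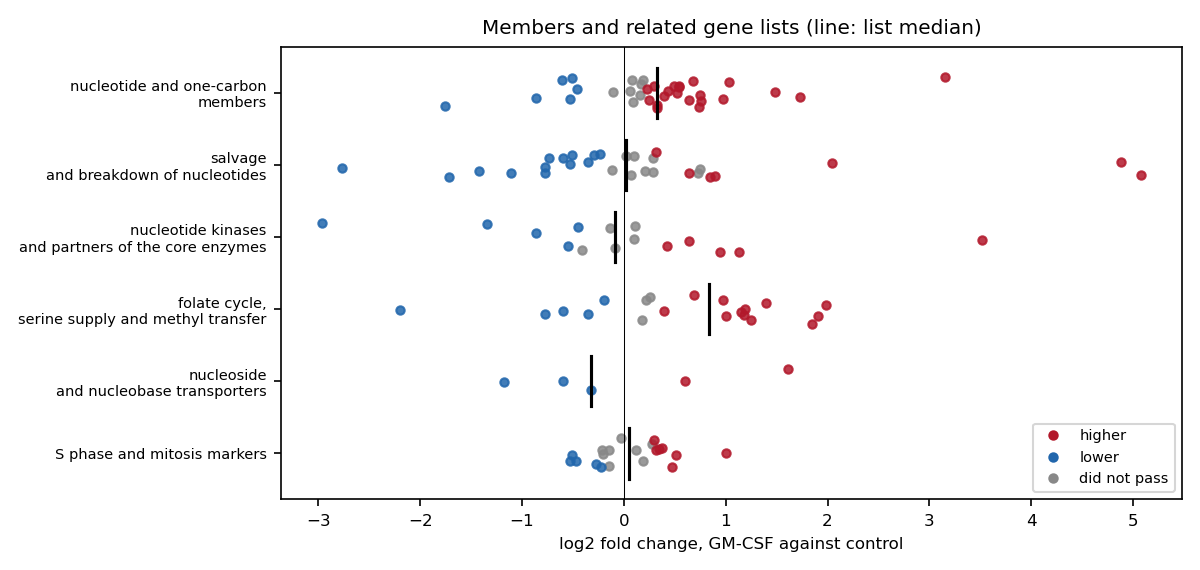
Log2 fold change (x axis, GM-CSF against control) of each tested gene in the member set and 5 related lists (rows); black lines are medians and colours mark genes that rose, fell or did not pass. The members and the folate and serine list have medians of 0.32 and 0.83, and the medians of the salvage, kinase and S phase lists lie near 0.

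The 34 genes lie on 15 chromosomes, 3 of them on X, and all are protein-coding in GENCODE M21. The position of the largest rise, Uck2, is chromosome 1, 167222883 to 167285320, and that of the largest fall, Tk2, is chromosome 8, 104226685 to 104248558, both on the minus strand of GRCm38. Of the members, 9 overlap another gene of the count table. The longest overlap is that of Ctps2 with S100g, at 2608 bases, and S100g had 0 reads in all 6 libraries. Over the 14 alternative fits, 26 of 34 members kept their side of the threshold and, where called, their sign; those that changed were Gart, Impdh2, Mthfd1l, Nme2, Paics, Rrm1, Tyms and Uck1, whose log2 fold changes were all under 0.5.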

How the data were processed

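The values deposited by the authors are whole, unscaled counts of reads for each gene symbol in 6 columns, 1 for each library and tied to it through its title. Of tools, per the submitters' processing notes, HTSeq 0.6.1p1, STAR 2.5.2a, Trim Galore 0.4.4 and edgeR were used, with the build mm10; which did what, the annotation and the strand setting: not given in the sources used here. Left out were reads outside genes (7.82% to 9.72%), ambiguous (1.44% to 1.53%) or not unique (18.0% to 19.6%).

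Under R 4.3.3 the counts were fitted by edgeR 4.0.16 (TMM, filterByExpr with a minimum count of 10 and total of 15, quasi-likelihood F test, group as the only term) on 11731 of 24421 entries, with Benjamini-Hochberg adjustment over all of them and a threshold of 0.05. SE was taken from the fold change and F (log2 size over root F). CPM values use the total of gene counts, and levels per kilobase the union of GENCODE M21 exons, which rare isoforms lengthen. Ratios had 0.5 reads added to each count. Intervals of depth cover counting error only. Other fits used other scalings and filters, DESeq2 1.42.0, limma-voom (limma 3.58.1), a replicate block, or left out each library in turn.

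All members are named. By rule, each related list gives the 2 largest rises and 2 largest falls that passed, at a mean log2 CPM of 1 or more. Each marker list gives its most abundant gene. Outside this rule, Adssl1, Prps1l3, Ngp and the further neutrophil and precursor genes named beside Tk1 were added after their values were seen. A result that this rule names is not reported here. The members and lists were chosen with earlier results of these data known.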

Additional observations from a re-analysis of the deposited data

How the results depend on the processing

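The count of members that rose was 21 or, over the other fits, 15 to 22, and 6 members fell in every fit. The lowest count came with upper quartile scaling, where the median log2 fold change was -0.11 over all genes and 0.21 in the members. Leaving out each library in turn gave 19 to 22 members higher. The replicate block gave 21 higher and 6 lower among members and 3848 higher and 3645 lower among all genes, where 3851 and 3660 were called without it. Same-numbered libraries correlated at 0.073, 0.010 and 0.004 in their deviations from group means, so the numbers were not taken to pair them, and GM-CSF replicates 2 and 3 correlated better with another number. Among all genes, 3488 to 3971 were higher and 3241 to 3768 lower without 1 library. The number of S phase genes that fell was 5, and 8 with upper quartile scaling and 3 to 7 without 1 library; the cause was not tested. No called member reversed its sign. Isozyme ratio differences kept their sign with 1 read added, with the replicate block and without any 1 library, except Rrm2 over Rrm2b, whose groups overlap (-0.016 without GM-CSF replicate 3). Depth limits the genes with few control reads, such as Upp1 and Nt5e.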

Other observations

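Aldh1l1, a cytosolic folate dehydrogenase in the folate list that was left untested by the filter on low counts, had 2, 0 and 1 reads in GM-CSF replicates 1 to 3 and 11, 7 and 207 reads in control replicates 1 to 3, so that control replicate 3 held nearly all of its reads. Prps1l1, another Prps1-like gene, had 16, 15 and 14 reads in GM-CSF and 4, 5 and 7 reads in control libraries (log2 fold change 1.83 ± 0.49; edgeR adjusted p = 0.00681). Both genes were chosen after their values were seen. In the salvage list, Hprt, which recycles hypoxanthine and guanine, did not pass, at 239 ± 7.96 CPM in GM-CSF and 236 ± 8.34 CPM in control libraries, while Aprt, which recycles adenine, fell to 189 ± 3.42 CPM in GM-CSF libraries, against 275 ± 4.25 CPM in control libraries (log2 fold change -0.53 ± 0.06). Dguok, the mitochondrial deoxyguanosine kinase, fell to 22.1 ± 1.22 CPM in GM-CSF libraries, against 59.3 ± 1.35 CPM in control libraries (-1.42 ± 0.09; edgeR adjusted p = 2.38e-07), as did Tk2, the other mitochondrial deoxynucleoside kinase. These 3 salvage genes were also chosen after their values were seen.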
